A study of Mus musculus with 10 samples.

Results

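Antibody genes were followed in liver sinusoidal endothelial cells from mice that lack the transcription factor Gata4 in these cells. Members were all array genes whose symbol starts with Igh, Igk or Igl followed by v, d, j, c, m, g, a or e. Ighmbp2 and Igll1 were not included, and Jchain was added. The rule found 215 of 24704 genes. RefSeq (GRCm38.p6) classes them as 185 V segments, 14 V pseudogenes, 8 constant (C) regions, 6 J segments, 1 D pseudogene and 1 ordinary protein-coding gene, Jchain. By the same annotation 105 lie on chromosome 12 (the heavy chain locus), 106 on chromosome 6 (kappa), 3 on chromosome 16 (lambda) and 1 on chromosome 5 (Jchain). No genome build is given for the array table.

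An antibody consists of heavy and light chains, and the light chain is either kappa or lambda. During B cell development 1 V segment, for heavy chains 1 D segment, and 1 J segment are joined in the DNA, and the joined exon is spliced to a constant region. The heavy constant region sets the class: Ighm gives IgM, the Ighg genes IgG, Igha IgA and Ighe IgE. Plasma cells, the secreting end stage of B cells, make these transcripts in very large amounts, and the J chain links IgM and IgA units into multimers. The sinusoidal endothelium of the liver is known for taking up circulating immune complexes through Fc receptors, and it is not known as a source of antibody.

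The knockout group (Gata4-LSEC-KO) came from the Cre line C57BL/6N-Tg(Clec4g-icre)1.1Sgoe, bred with mice carrying a floxed Gata4 allele, STOCK Gata4tm1.1Sad/J. The promoter of Clec4g, a lectin of sinusoidal endothelium, drives the Cre recombinase. The other group is labelled wild-type control and came from siblings. The labels do not state whether the controls carried the Cre or the floxed allele, nor the age and sex of the mice. Each group had 5 arrays, and each array held RNA from a pool of 3 livers. Cells were released with collagenase, enriched on a density gradient and selected with magnetic beads against CD146 (Mcam), so other cells that carry CD146, or that stuck to the beads, could enter a pool. The values are log2 array values, a scale on which 1 unit is a doubling. Probe sets differ in brightness, so a higher array value of 1 gene than of another is not read as more transcript. Brightness serves below only to sort genes.

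All 10 arrays carried the markers of the labelled cells. The mean over 12 sinusoidal endothelial markers was 10.41 to 10.84 in the knockout arrays and 10.60 to 10.85 in the controls, where the median of all values on the arrays was 3.7. Gata4 itself did not separate the groups: it averaged 8.59 ± 0.24 (SD, n = 5) in the knockouts and 8.71 ± 0.15 (SD, n = 5) in the controls (adjusted p = 0.742), and whether its probes lie in the deleted part is not given. Control replicate 1 stood apart. Its median correlation with the other arrays over all genes was 0.935, while for the other 9 arrays this value was 0.970 to 0.981. For a number of values described below, the value without it is given too.

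Constant regions, J segments, V segments and Jchain were among the genes that rose in the knockout arrays. With limma's moderated test and Benjamini-Hochberg adjustment over all genes, 21 of the 215 rose, which is 9.77% of them, while 1.3% of all genes rose at the same threshold (adjusted p under 0.05). None fell, where 0.846% of all genes fell, and 194 did not pass the test. The increases ranged from 1.70-fold to 6.80-fold, and 16 of the 21 were at least 2-fold. At an unadjusted p under 0.05, 73 members were higher (34.0%, against 7.07% of all genes) and 4 were lower (1.86%, against 6.57%): Ighv2-7, Ighv5-2, Ighv8-6 and Igkv1-132. In 26 members all 5 knockout values lay above all 5 control values (12.1%, against 2.55% of all genes). In no member did all knockout values lie below the controls, a pattern seen in 2.37% of all genes. The difference was above 0 in 157 members (73.0%, against 44.8% of all genes). The median log2 difference over all members was 0.25, and over all genes it was -0.02. Without control replicate 1, 23 members rose, and 20 of the 21 were among them, where 1.59% of all genes rose. Without knockout replicate 1 the count was 13, and it was 14 without knockout replicate 4 or control replicate 5. The shares of all genes that rose in these 3 fits were 0.903%, 0.806% and 0.737%.

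These are bulk samples, so more cells that carry antibody transcripts and more antibody RNA per cell cannot be told apart. The p-values measure the spread between pools. Many V segments are near-identical in sequence, so the signal of a single V segment may partly come from its relatives and is uncertain at the level of the single gene.

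**Figure D1:**
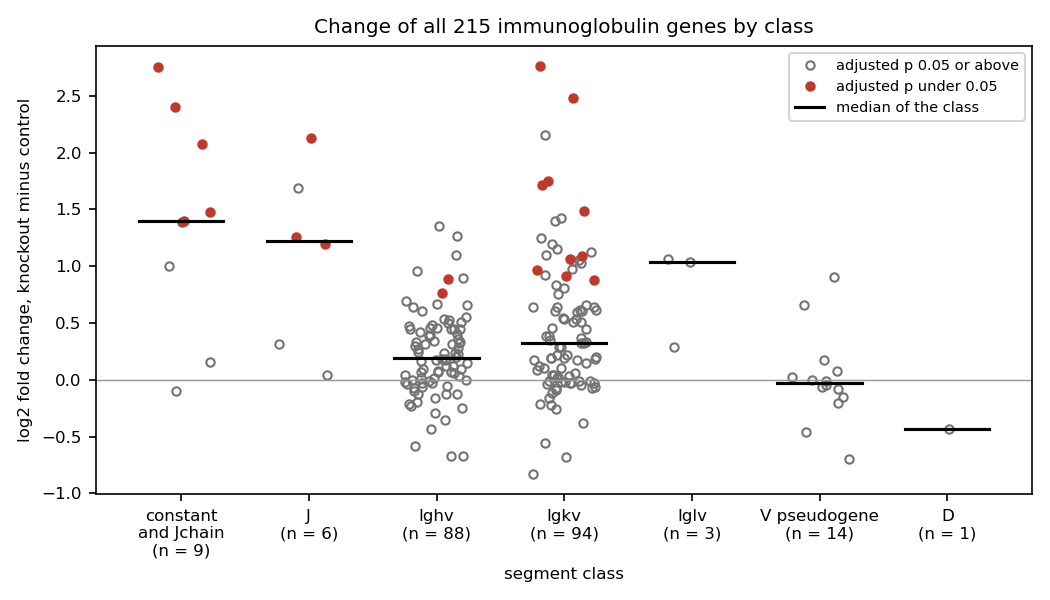
Log2 difference (knockout minus control) of each of the 215 members, by segment class. Each point is 1 gene, horizontal scatter within a class only separates the points, black bars are medians and filled points passed the adjusted test. Constant regions and J segments lie mostly above 0, while functional V segments spread from below 0 to above 2 and V pseudogenes centre near 0.

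Of the 8 constant regions 5 rose, and their median log2 difference was 1.44. Ighm, the constant region of IgM, had values of 8.81, 8.06, 8.07, 8.86 and 8.22 in knockout arrays 1 to 5 and of 5.99, 6.40, 6.57, 6.46 and 6.23 in control arrays 1 to 5. Every knockout value lay well above every control value, and knockout replicates 4 and 1 were the highest. The difference was 2.07 ± 0.19 (SE), 4.21-fold, with a limma adjusted p of 0.00026.

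Igkc, the only kappa constant region, also rose. Its values were 10.005, 9.48, 8.74, 10.07 and 9.57 in the knockouts and 6.53, 7.13, 7.51, 7.37 and 7.31 in the controls. The groups were fully separated, with knockout replicate 3 the lowest of its group and control replicate 1 the lowest of all. The log2 difference was 2.40 ± 0.26 (SE), 5.29-fold (limma adjusted p = 0.000732), and it was 2.24 without control replicate 1.

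The IgG constant regions differed among themselves. Ighg1 had knockout values of 5.94, 6.09, 4.19, 5.95 and 6.71 and control values of 3.57, 2.69, 2.81, 2.93 and 3.08. All knockouts were above all controls, and knockout replicate 3 was well below the other knockouts. Its increase of 2.76 ± 0.38 (SE) on the log2 scale, 6.76-fold, was the largest of the constant regions (limma adjusted p = 0.00318). Ighg2b rose by 1.48 ± 0.33 (2.78-fold, limma adjusted p = 0.0432), from 2.82 ± 0.42 (SD, n = 5) to 4.30 ± 0.74 (SD, n = 5). Its groups overlapped, since knockout replicate 3 at 3.26 lay below control replicate 4 at 3.29. The call on Ighg2b was lost when any array other than knockout replicate 3 was left out, with adjusted p up to 0.108.

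Ighg2c had knockout values of 4.78, 2.84, 2.54, 4.32 and 4.64 and control values of 3.62, 2.73, 2.56, 2.81 and 2.38. Only knockout replicates 1, 4 and 5 stood above the controls, and the difference of 1.00 (95% interval 0.04 to 1.97) did not pass (limma adjusted p = 0.342). Ighg3 averaged 3.01 ± 0.33 (SD, n = 5) in the knockouts and 3.11 ± 0.36 (SD, n = 5) in the controls, a difference of -0.10 with an interval from -0.53 to 0.33 (limma adjusted p = 0.869). An array difference of the size seen for Ighg1 lies outside that interval. The interval bounds only the array value. Ighg3 averaged 3.06 over the 10 arrays, under the array median of 3.7, so it is not read as unchanged.

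Igha, the constant region of IgA, rose from 4.09 ± 0.63 (SD, n = 5) to 5.49 ± 0.52 (SD, n = 5). The knockout arrays held 5.40, 5.15, 4.86, 5.94 and 6.08 and the controls 3.09, 3.85, 4.44, 4.5 and 4.58 in rising order, without overlap. The difference was 1.39 ± 0.31, 2.63-fold, near the threshold (limma adjusted p = 0.0460). It no longer passed when knockout replicate 1, 2, 4 or 5 or control replicate 2, 3, 4 or 5 was left out (adjusted p up to 0.119). Ighe, the IgE constant region, was at 2.17 ± 0.35 (SD, n = 5) against 2.01 ± 0.05 (SD, n = 5), a difference of 0.16 with an interval from -0.18 to 0.50 (limma adjusted p = 0.717).

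Jchain, which encodes the joining protein of IgM and IgA and does not rearrange, also rose. It had knockout values of 5.06, 4.83, 4.22, 5.30 and 4.31 and control values of 3.34, 3.54, 3.76, 3.26 and 2.83. The groups did not overlap, and the difference was 1.40 ± 0.23, 2.63-fold (limma adjusted p = 0.00924). Jchain is the only member with a promoter in the RefSeq promoter table used here. The sequence runs from 250 bases before to 50 bases from the start of the gene, GRCm38.p6 chr5:88527848-88528147, minus strand, and is shown because Jchain moved with the constant regions although it lies at a locus of its own. Capitals mark a match to the E-box CAGGTG, here as its reverse complement CACCTG, a motif picked after the data were seen.
Jchain promoter: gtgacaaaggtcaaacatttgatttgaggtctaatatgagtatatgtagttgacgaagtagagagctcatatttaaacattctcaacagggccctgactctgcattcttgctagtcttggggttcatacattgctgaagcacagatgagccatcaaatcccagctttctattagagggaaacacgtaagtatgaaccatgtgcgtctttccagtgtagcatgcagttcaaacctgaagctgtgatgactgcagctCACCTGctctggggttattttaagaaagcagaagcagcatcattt
That E-box, searched on both strands, occurs in 6640 of the 32851 promoters of the table (20.2%). The octamer ATGCAAAT, the known element of V segment promoters, was also searched on both strands, as ATGCAAAT and ATTTGCAT. It has no match in the Jchain window and occurs in 570 promoters of the table (1.74%).

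**Figure D2:**
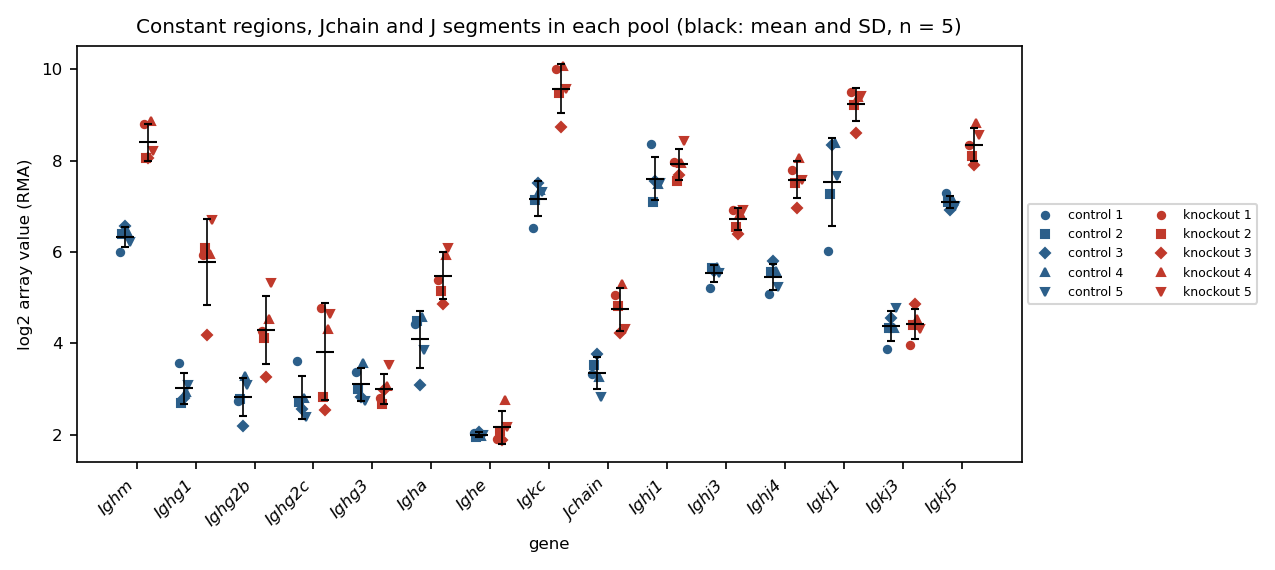
Log2 array values of the constant regions, Jchain and the J segments on each of the 10 arrays, knockout and control side by side, 1 point per pool of 3 mice, with mean and SD in black (n = 5). Ighm, Igkc, Ighg1, Igha, Jchain, Ighj3, Ighj4, Igkj1 and Igkj5 have all 5 knockout points above all 5 control points, whereas Ighg3, Ighe, Ighj1 and Igkj3 overlap.

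Of the 6 J segments, the short segments that join V (or D) to the constant region, 3 rose and the median log2 difference was 1.23. Ighj4 had knockout values of 7.80, 7.51, 6.96, 8.07 and 7.59 and control values of 5.09, 5.56, 5.81, 5.59 and 5.23. Every knockout lay above every control, and the difference was 2.13 ± 0.20, 4.38-fold (limma adjusted p = 0.000318). Ighj3 rose by 1.19 ± 0.14, 2.29-fold (limma adjusted p = 0.000986), with 6.39 to 6.92 in the knockouts and 5.22 to 5.66 in the controls. Ighj1 did not pass: it averaged 7.92 ± 0.33 (SD, n = 5) and 7.60 ± 0.47 (SD, n = 5), a difference of 0.32 (0.51 without control replicate 1) with an interval from -0.18 to 0.82, and its highest control, replicate 1 at 8.38, lay close to the highest knockout at 8.43.

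Among the kappa J segments, Igkj5 had knockout values of 8.35, 8.11, 7.92, 8.82 and 8.56 and control values of 7.29, 7.11, 6.93, 7.12 and 7.01, which do not overlap. It rose by 1.26 ± 0.16, 2.39-fold (limma adjusted p = 0.00197). Igkj1 had 9.51, 9.22, 8.61, 9.40 and 9.41 in the knockouts and 6.03, 7.27, 8.34, 8.39 and 7.66 in the controls. Its groups were separate too, but the controls were spread from 6.03 to 8.39, and the difference of 1.69 ± 0.39 did not pass (limma adjusted p = 0.0529). Without control replicate 1 it was 1.31 with an adjusted p of 0.0179. Igkj3 overlapped, with 3.96 to 4.86 in the knockouts and 3.88 to 4.77 in the controls, a difference of 0.04 and an interval from -0.38 to 0.46. Without control replicate 1 the Igkj3 difference was -0.09.

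The V segments encode most of the antigen-binding site. Of the 185 functional V segments 12 rose, none fell, 138 had a difference above 0 and the median was 0.27. Over all genes 1.3% rose, 0.846% fell and 44.8% had a difference above 0. The 14 V pseudogenes had a median of -0.03: 5 lay above 0 and none passed. Of these pseudogenes Ighv7-3, at 0.90, was the only one with an unadjusted limma p under 0.05. The difference between functional segments and pseudogenes was not tested.

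By locus, 10 of the 102 Igkv segments rose (9.8%, median 0.29), against 2 of the 94 Ighv segments (2.13%, median 0.18). None of the 3 Iglv segments rose (median 1.03). Over all genes 1.3% rose, so the Ighv share was close to that of all genes. At an unadjusted limma p under 0.05, 39 of the 102 Igkv, 21 of the 94 Ighv and 2 of the 3 Iglv segments were higher. Over all genes 7.07% were higher. The only D segment measured, the pseudogene Ighd6-2, had a difference of -0.44 ± 0.50, with control replicate 1 at 5.24 and the other controls at 2.47 to 3.26. Without that array the Ighd6-2 difference was 0.03.

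Igkv10-96 had the largest difference of all 215 members. Its knockout values were 5.49, 5.04, 5.00, 5.92 and 5.75 and its control values 2.23, 3.47, 2.63, 1.81 and 3.24. The groups lay far apart, and the difference was 2.76 ± 0.31, 6.80-fold (limma adjusted p = 0.000808). The other 2 segments of its family did not pass: Igkv10-94 differed by 1.03 ± 0.35 (limma adjusted p = 0.198) and Igkv10-95 by 0.18 ± 0.14 (limma adjusted p = 0.637).

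Igkv1-110 had knockout values of 4.68, 4.32, 4.86, 5.91 and 4.02 and control values of 3.06, 2.51, 2.39, 1.57 and 1.84. The groups were separate, and the segment rose by 2.48 ± 0.36, 5.59-fold (limma adjusted p = 0.00403). Its family, Igkv1, held 4 of the 10 kappa V segments that rose, out of 11 members with a median of 0.39. The others were Igkv1-135 (1.75 ± 0.32), Igkv1-117 (1.49) and Igkv1-88 (0.97), picked here after their values were seen, and in Igkv1-117 and Igkv1-88 the groups overlapped. With each array left out in turn, Igkv1-117 passed in 4 of 10 fits (limma adjusted p up to 0.104) and Igkv1-88 in 3 (up to 0.0903). The largest kappa family, Igkv4, held 3 among 26 members with a median of 0.17: Igkv4-57-1 (1.71 ± 0.29), Igkv4-50 (1.09) and Igkv4-57 (0.92). The remaining kappa segments that rose were Igkv12-46 (1.06) and Igkv19-93 (0.88). With each array left out in turn, Igkv4-57 passed in 4 of 10 fits, Igkv12-46 in 5 and Igkv19-93 in 3, with limma adjusted p up to 0.0919.

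In other kappa families differences above 0 were common without passing the test. None of the 9 Igkv3 segments rose, although 5 had an unadjusted limma p under 0.05 and the family median was 0.54. All 8 Igkv6 segments had differences above 0 (median 0.50) and none passed. Igkv4-91 had a difference as large as that of several genes that passed, 2.16 ± 0.53, with an adjusted p of 0.0633.

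Among heavy V segments Ighv1-76 had knockout values of 3.31, 2.90, 3.06, 3.07 and 3.38 and control values of 1.84, 2.36, 2.31, 2.57 and 2.21. The groups did not overlap, and it rose by 0.89 ± 0.15, 1.85-fold (limma adjusted p = 0.00924). Ighv2-5, named after its values were seen, rose by 0.77 ± 0.15, 1.70-fold (limma adjusted p = 0.0249), and passed in 5 of the 10 fits with an array left out (adjusted p up to 0.0693). The family of Ighv1-76, Ighv1, is the largest, and 40 of its 47 members had differences above 0 (median 0.20), while all 4 Ighv8 segments lay below 0 (median -0.29) without passing.

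Position along the locus was compared after the values were seen. The 102 kappa V segments were ordered by distance from the J segments and split into 3 blocks of 34. The median differences were 0.31 in the block nearest the J segments, 0.20 in the middle and 0.27 in the farthest, and 0, 5 and 5 segments rose. The heavy V segments gave medians of 0.12, 0.27 and 0.15 in blocks of 31, 31 and 32.

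A lambda light chain V segment, Iglv1, had knockout values of 4.78, 4.94, 3.92, 5.17 and 3.67 and control values of 3.81, 3.74, 2.96, 3.17 and 3.61. Knockout replicate 5 lay within the controls. Its difference of 1.03 (95% interval 0.39 to 1.68) did not pass (limma adjusted p = 0.113). Iglv2 differed by 1.06 (interval 0.29 to 1.83, limma adjusted p = 0.18), with knockout replicate 4 at 4.53 and the other knockouts at 2.08 to 3.38, and Iglv3 by 0.29 ± 0.16 (limma adjusted p = 0.491). With knockout replicate 5 left out, Iglv1 (1.24, limma adjusted p = 0.0401) and Iglv2 (1.36, limma adjusted p = 0.0308) passed.

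The V segments with the highest array values did not pass the test. Ighv2-3 had knockout values of 8.71, 8.87, 8.31, 8.45 and 8.46 and control values of 9.59, 8.26, 9.51, 8.44 and 8.27, with control replicates 1 and 3 highest (difference -0.25 ± 0.28, limma adjusted p = 0.752, and -0.06 without control replicate 1). Ighv2-9-1, Ighv2-2, Ighv11-2 and Ighv11-1 differed by -0.12, -0.16, -0.12 and -0.02, and Igkv4-58 and Igkv4-74 by -0.03 and -0.07. Without control replicate 1 these heavy segments differed by 0.06, -0.09, 0.14 and 0.19, and Igkv4-58 and Igkv4-74 by 0.13 and 0.18. The other 3 kappa segments of this kind had differences above 0: Igkv2-137 by 0.32 ± 0.22, Igkv4-68 by 1.06 ± 0.51 (limma adjusted p = 0.404) and Igkv4-62 by 0.66 ± 0.34 (limma adjusted p = 0.449). Of the members, 45 (20.9%) averaged above the array median of 3.7. Of these 45, 11 rose (24.4%) and the median difference was 0.66. Of the 170 dimmer members 10 rose (5.88%), with a median of 0.19. Over all genes 2.21% of those above the array median rose and 0.374% of the dimmer ones.

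The members with the lowest differences did not pass the test. Ighv2-7 differed by -0.67 (limma adjusted p = 0.266), Ighv9-1 by -0.67 (0.369) and Ighv5-2 by -0.59 (0.310). In the kappa locus Igkv8-16 differed by -0.83 ± 0.89, but control replicate 1 stood at 6.99 and the other controls at 1.59 to 2.03, and without that array the difference turned to 0.22. Igkv2-116 differed by -0.70 ± 0.57, again with control replicate 1 alone at 6.46 and the others at 2.94 to 3.57, and it was -0.05 without that array. Igkv4-80 differed by -0.68 ± 0.51 (limma adjusted p = 0.621), and by -0.25 without control replicate 1.

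**Figure D3:**
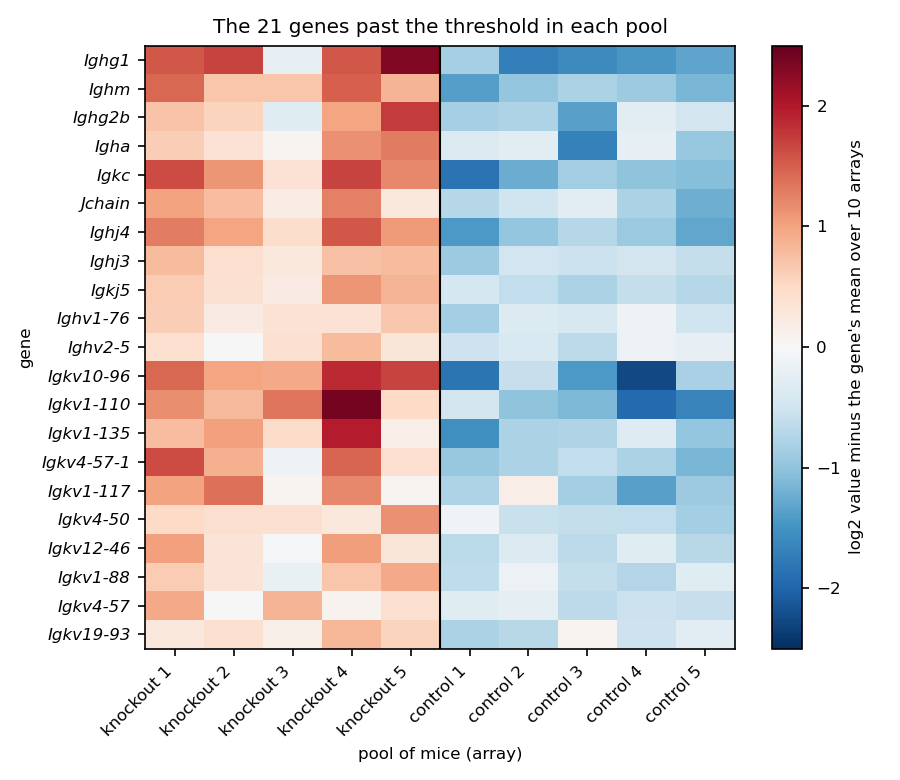
Heat map of the 21 members that rose (rows) on each of the 10 arrays (columns), coloured by the log2 value minus the gene's mean over the 10 arrays, red above and blue below it. All knockout values lie above all control values in 18 of the 21, and knockout replicate 3 is the lowest knockout in 13.

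The pools of the same genotype differed in which antibody genes were high. Among the 21 genes that rose, the highest array was knockout replicate 4 for 11, replicate 5 for 6, replicate 1 for 3 and replicate 2 for 1. Knockout replicate 3 was the lowest of the knockouts for 13 of them. Ighm, Igkc and Jchain were highest in knockout replicates 4 and 1, while Ighg1, Ighg2b and Igha were highest in knockout replicate 5. The standard deviation within groups had a median of 0.36 over the members and 0.24 over all genes, and 36 of the 215 (16.7%) were among the top 5% of all genes by it. Summarised per array, the median over all members was 2.75, 2.64, 2.37, 2.78 and 2.43 in the knockouts and 2.20, 2.30, 2.08, 2.24 and 2.17 in the controls, which do not overlap.

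T cell receptor genes were set beside the members as similar features, since their V, D and J segments too are short and rearrange. They were taken by symbol: Tra, Trb, Trd or Trg followed by v, d, j or c. The rule also takes in constant regions such as Trac, and it matches the symbol Tradd, which is not a T cell receptor gene. Of the 165 genes taken by this rule none passed limma's adjusted test, where 1.3% of all genes rose and 0.846% fell. At an unadjusted limma p under 0.05, 5 were higher and 2 lower, against 7.07% and 6.57% of all genes. Only 31 of the 165 (18.8%) averaged above the array median, and 0.374% of all genes at or below it rose. A count of 0 is therefore near the share of all genes. The smallest limma adjusted p of the 165 was 0.0569, and their median difference was -0.05. Their per-array median was 2.21 to 2.32 over all 10 arrays.

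Few other genes of B cells passed the test. Several of those described below averaged under the array median of 3.7 over the 10 arrays. They were Ms4a1 (3.18), Cd79a (3.61), Pax5 (2.73), Pou2af1 (3.02), Mzb1 (3.63) and Irf4 (2.63), while Cd79b (4.16) lay above it. Over all genes 0.374% of those at or below that median rose, against 2.21% of those above it. A dim gene that did not pass is therefore not read as unchanged. Of 17 measured genes of the B cell surface and its signalling 1 rose, where 1.3% of all genes rose. The list median was 0.09. At an unadjusted limma p under 0.05, 4 were higher and none lower, against 7.07% and 6.57% of all genes. The per-array mean of the list was 4.04 to 4.19 in the knockouts and 3.7 to 4.02 in the controls. The gene that rose was Cd24a (1.71 ± 0.38, limma adjusted p = 0.0434, up to 0.113 with an array left out), which other cells including neutrophils and bile duct cells also express. The others higher at an unadjusted p under 0.05 did not pass. They were Fcer2a (1.51 ± 0.39, limma adjusted p = 0.0813), Blnk (0.59 ± 0.20, limma adjusted p = 0.182) and Cd72 (0.74 ± 0.27, limma adjusted p = 0.239). Ms4a1, which encodes CD20 of mature B cells, had knockout values of 3.46, 2.88, 3.26, 3.32 and 3.07 and control values of 3.31, 3.18, 2.91, 3.13 and 3.29. The groups overlapped throughout, with a difference of 0.03 and an interval from -0.26 to 0.31. Cd79a and Cd79b, the signalling chains of the B cell receptor, differed by 0.40 (interval -0.03 to 0.83, limma adjusted p = 0.408) and 0.13 (interval -0.25 to 0.52, limma adjusted p = 0.796).

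Of 9 B cell transcription factors 1 rose, where 1.3% of all genes rose. The list median was -0.05. Ebf1, required for the B lineage and also present in stromal cells, had knockout values of 5.73, 5.07, 5.47, 5.89 and 5.98 and control values of 3.81, 4.42, 3.84, 3.94 and 3.31. The groups were separate and the difference was 1.76 ± 0.22, 3.39-fold (limma adjusted p = 0.00144). Pax5, the factor that maintains B cell identity, differed by 0.05 (interval -0.22 to 0.32), and Pou2af1, a coactivator at octamer elements, by -0.13 ± 0.18 (limma adjusted p = 0.817).

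None of the 14 plasma cell and secretory genes passed limma's adjusted test, where 1.3% of all genes rose and 0.846% fell. In so short a list a count of 0 is near those shares. At an unadjusted limma p under 0.05, 1 was higher and 2 lower, against 7.07% and 6.57% of all genes. The median difference of the list was -0.07. Mzb1, a chaperone that helps antibody assembly, had knockout values of 3.45, 3.67, 3.28, 3.78 and 3.84 and control values of 3.47, 3.73, 3.84, 3.66 and 3.55, a difference of -0.04 with an interval from -0.33 to 0.24. Prdm1, the regulator of plasma cell fate that is also expressed elsewhere, lay at 5.06 to 5.51 in the knockouts. Its controls lay at 4.51 to 5.11, so its groups overlapped, and the difference of 0.56 ± 0.13 did not pass (limma adjusted p = 0.0530). Prdm1 passed with array weights (limma adjusted p = 0.0209) and without control replicate 3 (limma adjusted p = 0.0220). It also passed when only genes above the array median were kept (limma adjusted p = 0.0378). Xbp1, which drives the secretory programme, differed by 0.23 ± 0.12 (limma adjusted p = 0.461) and Irf4 by -0.16 ± 0.09 (limma adjusted p = 0.491). Sdc1, a surface marker of plasma cells, lay at 5.113 to 5.213 in the knockouts and at 5.219 to 6.652 in the controls. Its groups were separate only by a narrow margin, and the difference of -0.72 ± 0.22 did not pass (limma adjusted p = 0.147). Of the 6 genes of recombination and the pre-B stage none passed (median 0.05), again near the shares of all genes. Of these 6, 1, Igll1, was lower at an unadjusted limma p under 0.05 (-0.56 ± 0.23, limma adjusted p = 0.301).

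**Figure D4:**
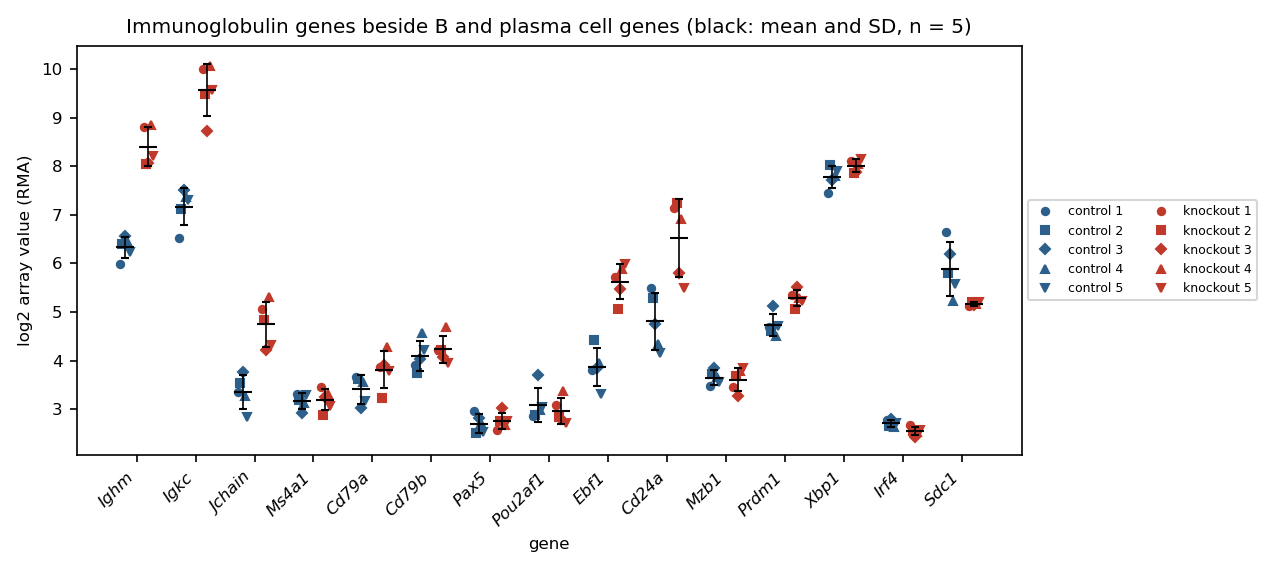
Log2 array values of Ighm, Igkc and Jchain beside B cell and plasma cell genes on each of the 10 arrays, 1 point per pool, with mean and SD in black (n = 5). Ebf1 is separate between the groups, whereas Ms4a1, Cd79b, Pax5 and Mzb1 overlap throughout.

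Of 12 receptors that bind antibody none passed limma's adjusted test, where 1.3% of all genes rose and 0.846% fell. In so short a list a count of 0 is near those shares. At an unadjusted limma p under 0.05, none was higher and 1 was lower, against 7.07% and 6.57% of all genes. The median of the list was -0.12. Fcgr2b, the Fc gamma receptor of sinusoidal endothelium, averaged 11.58 ± 0.23 (SD, n = 5) in the knockouts and 11.83 ± 0.13 (SD, n = 5) in the controls (limma adjusted p = 0.440). Fcgrt, which recycles IgG, was 10.21 ± 0.25 (SD, n = 5) against 10.75 ± 0.27 (SD, n = 5). Its difference of -0.54 ± 0.16 did not pass (limma adjusted p = 0.123). Without control replicate 1 it was -0.64 and passed (limma adjusted p = 0.0377). Fcgrt also passed with array weights (limma adjusted p = 0.0235). Pigr, the transporter of polymeric IgA and IgM, differed by 0.70 ± 0.41 (limma adjusted p = 0.517). Among 11 ligands for B cell survival and homing none passed (median -0.03), again near the shares of all genes. At an unadjusted limma p under 0.05, 3 were higher, against 7.07% of all genes. Madcam1, an adhesion molecule for gut-homing lymphocytes, had the smallest adjusted p (0.65 ± 0.17, limma adjusted p = 0.0872). Madcam1 passed without control replicate 1 (limma adjusted p = 0.0358) and with array weights (limma adjusted p = 0.0183).

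Markers of some other cell types rose in the same arrays, where 1.3% of all genes rose and 0.846% fell. Of 12 neutrophil and monocyte genes 9 rose and none fell (median 1.91). Their per-array mean was 4.80, 6.36, 5.05, 5.97 and 5.04 in the knockouts and 3.09, 3.58, 3.83, 3.33 and 3.30 in the controls, and Lcn2 (3.29 ± 0.40) and S100a8 (3.16 ± 0.53) led the list. That mean was highest in knockout replicate 2, whereas the members' median was highest in knockout replicate 4. Of 7 cholangiocyte genes 2 rose and none fell (median 1.43), with a per-array mean of 4.87 to 6.94 against 3.72 to 4.69. The 9 dendritic cell genes did not move together and had a median of 0.12. Of them 1, Cd209a, rose (2.26 ± 0.32, limma adjusted p = 0.00376) and none fell. At an unadjusted limma p under 0.05, 3 of the 9 were higher and 1, Clec9a (-0.43), was lower. None of 13 T and NK cell genes, 11 Kupffer cell and macrophage genes or 5 erythroid and platelet genes passed limma's adjusted test. At an unadjusted limma p under 0.05, 1, 0 and 1 of them were higher, against 7.07% of all genes. The Kupffer list mean was 7.09 to 8.11 in the knockouts against 5.40 to 8.22 in the controls. The 5.40 was control replicate 1, and the other controls were at 6.93 to 8.22. Hepatocyte genes were split, with Hp up and Cyp2e1 down among 8. The bead target Mcam itself rose by 1.24 ± 0.11, but the 12 sinusoidal endothelial genes that include it had a median difference of -0.30. Of these 12, 8 lay below 0, 6 were lower at an unadjusted limma p under 0.05, and Clec4g fell (-0.76 ± 0.14, limma adjusted p = 0.0207). The part of these cells and of the bead selection in the higher antibody gene values was not tested.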

How the data were processed

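Total RNA of 10 pools (3 mice each) was hybridised as biotin-labelled cRNA on Affymetrix arrays, per the labels' protocols. The authors deposited 1 table of log2 values for 25428 probe sets, made with RMA per the submitters' processing notes. Each row is named by an Entrez gene ID, and 24704 genes with a symbol were tested, taking the brighter row where a symbol had 2. All 10 columns were used, and the number of columns left out was 0. Array data give no read depth, and 5 arrays per group limit the precision. The groups were compared with limma 3.58.1 in R 4.3.3 (lmFit, eBayes without trend, no covariates), with Benjamini-Hochberg adjustment over all genes and a threshold of 0.05, and this was checked on simulated data. Intervals are limma's 95% intervals.

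The members and the gene lists were chosen with earlier results of these data known, so lists are described by counts and medians without a test of their own. Named genes were Gata4, Jchain, all constant regions, up to 10 members past the threshold per direction by p, up to 5 per segment class by mean value, up to 3 per locus by difference in each direction, up to 4 per other list, and a set of B cell and receptor genes. Any other gene named was picked after its values were seen. Array weights, an intensity trend, a filter on dim genes, a replicate block and leaving out each array were tried. Arrays with the same replicate number did not deviate together (correlations of -0.16 to 0.04), so the numbers were not treated as pairs. The labels state no scan date or batch.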

Additional observations from a re-analysis of the deposited data

Results flagged for a closer look

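For the 76 genes named by the rule stated above, each group of 5 arrays was checked for an array far from the other 4 (gap over range above 0.71). Some of the 76 have no value in the text, and genes picked after their values were seen were not checked. In 12 of 152 groups 1 array stood apart, and chance gives about 1 in 20 groups. Of the 12, 6 were antibody genes and 6 were in control replicate 1.

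In control replicate 1, Igkv8-16 was at 6.99 (other controls 1.59 to 2.03), Igkv2-116 at 6.46 (2.94 to 3.57), Igkv2-137 at 7.17 (6.63 to 6.76), Ighd6-2 at 5.24 (2.47 to 3.26) and Igll1, a surrogate light chain gene, at 4.46 (3.17 to 3.27). These 5 values were all high. Ighj3 was low there, at 5.22 against 5.54 to 5.66. Igkv4-58 stood at 8.06 in knockout replicate 5, against 7.10 to 7.33 in the other knockouts.

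Among genes outside the antibody loci, Alas2 was at 4.49 in knockout replicate 4 (other knockouts 3.30 to 3.61). Cd3g was at 3.79 in control replicate 2 (other controls 2.67 to 2.92). Pou2af1 was at 3.69 (2.85 to 3.03) and Vcam1 at 8.07 (7.71 to 7.79) in control replicate 3. Ngp, a neutrophil granule gene, was at 2.12 in control replicate 5, below the 3.15 to 3.45 of the other controls.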

How the results depend on the processing

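The count of antibody genes that rose was 21, where 1.3% of all genes rose. It was 35 with array weights, where 2.49% of all genes rose. When only genes above the array median were kept, it was 13 of the 45 tested, where 2.75% of all genes kept rose. It was 13 to 23 when each array was left out in turn, where 0.737% to 1.59% of all genes rose. Counted in either direction, the members that passed were again 35 and 13, with the same range of 13 to 23 over the arrays left out. No member fell, except that Igkv1-132 did with the intensity trend (1 gene, limma adjusted p = 0.0410) and without control replicate 4 (limma adjusted p = 0.0464), a range of 0 to 1 over the arrays left out. Over all genes 529 passed, 1070 with array weights, and 287 to 737 with each array left out. With the replicate number as a block 275 genes and 15 antibody genes passed, 15 of the 21 among them, and 0.81% of all genes rose. Ighv1-76 lost its call there (limma adjusted p = 0.0649). Members whose groups did not overlap, all with the knockouts higher, numbered 13 of 45 with the dim filter, against 26 of 215. The shares of all genes with that pattern were 4.08% and 2.55%. The median difference of all members, 0.25, was 0.66 with the dim filter and 0.40 as a mean.

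Of the 21 genes, 11 passed in all 14 alternative settings, or in the 13 that tested them for Igkv1-110 and Igkv4-57-1: Ighm, Igkc, Ighg1, Jchain, Ighj3, Ighj4, Igkj5, Igkv1-110, Igkv1-135, Igkv10-96 and Igkv4-57-1. The dim filter left out those 2. Of the others, 8 lost their call with some array left out and 2 under another setting. No called gene changed direction. Of the members named by the stated rule, Igkj1, Iglv1 and Iglv2 did not pass at first but did in some settings. Outside the antibody genes the same held for Fcgrt, Madcam1 and Prdm1.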
